A study of Mus musculus with 6 samples.

Results

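The genes described here are 10 marker genes of Sertoli cells, the supporting cells of the testis: *Cst9*, *Cst12*, *Clu*, *Aard*, *Tsx*, *Mro*, *Sncb*, *Abtb2*, *Xkr4* and *Rhox8*. They are 10 of the 34461 genes with counts in whole ovaries of 3 *Trim28* cKO mice and 3 control mice aged 7 months. They were picked by name as Sertoli markers outside the transcription factors, with the difference between these genotypes already known, and *Cst9*, *Sncb*, *Xkr4* and *Rhox8* were among the genes the study itself selected from these libraries. Their differences between genotypes are therefore given as a description, without a test. The label holds for 9 of the 10 genes, because *Rhox8* encodes a homeobox protein, a kind of transcription factor.

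*Trim28* cKO mice were *Trim28* flox/flox; *Nr5a1:Cre*, in which the *Nr5a1* promoter drives Cre in somatic cells of the gonad from fetal life, so that oocytes and cells of other origin keep *Trim28*. Controls were either *Trim28* flox/flox without the transgene or *Trim28* flox/+; *Nr5a1:Cre*, and the labels do not say which applies to each library, so some controls may carry Cre and 1 deleted allele. All mice were of a mixed 129SV/C57BL6/J background. The labels name 3 mice per genotype but tie none to a library. Each library was treated as 1 mouse, and otherwise the p-values measure only technical spread.

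Total counts were 32441021, 43904823 and 48508461 in the *Trim28* cKO libraries and 38547807, 23615580 and 45033787 in the control libraries. *Trim28* was at 48.8, 55.6 and 71.2 CPM (read counts scaled to library size with TMM) in *Trim28* cKO ovaries, against 155, 178 and 155 CPM in control ovaries, as the labels require. Its log2 fold change was -1.47 (SE 0.15, adjusted p = 0.000663, quasi-likelihood test of edgeR). Because whole ovaries were sequenced, more cells of a type and more RNA per cell cannot be told apart for any gene below.

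Sertoli cells surround the germ cells of the testis, form the blood-testis barrier and secrete proteins into the seminiferous tubule. Granulosa cells of the ovarian follicle arise from the same supporting lineage of the fetal gonad. The Sertoli programme is set up by transcription factors such as SOX9, SOX8 and DMRT1, whereas FOXL2 and oestrogen receptors maintain granulosa cells. *Clu*, *Cst9* and *Cst12* encode secreted proteins, *Tsx* and *Rhox8* are X-linked genes active in reproductive tissue, *Sncb* and *Xkr4* are better known from neurons, and *Aard*, *Mro* and *Abtb2* encode intracellular proteins.

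Promoter sequences of 5 of the 10 genes (*Abtb2*, *Cst12*, *Cst9*, *Sncb* and *Tsx*) were found in the RefSeq table for GRCm38.p6, and 3 of them are printed here. *Cst9* and *Cst12* are shown because they are paralogues in 1 gene cluster with different differences between genotypes, and *Tsx* because the GATA core was found there and in *Cst9*. Each is the 250 bases before the RefSeq start of the gene, on the plus strand, chr2:148834897-148835146 for *Cst9*, chr2:148789115-148789364 for *Cst12* and chrX:103414217-103414466 for *Tsx*. Capitals mark the GATA core GATAA, the letters read by GATA factors such as GATA4 and GATA1.
Cst9: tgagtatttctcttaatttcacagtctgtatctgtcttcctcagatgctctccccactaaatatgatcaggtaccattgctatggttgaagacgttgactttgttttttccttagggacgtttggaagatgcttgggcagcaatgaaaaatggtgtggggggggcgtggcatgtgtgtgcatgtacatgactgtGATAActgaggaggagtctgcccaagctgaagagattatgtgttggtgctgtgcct
Cst12: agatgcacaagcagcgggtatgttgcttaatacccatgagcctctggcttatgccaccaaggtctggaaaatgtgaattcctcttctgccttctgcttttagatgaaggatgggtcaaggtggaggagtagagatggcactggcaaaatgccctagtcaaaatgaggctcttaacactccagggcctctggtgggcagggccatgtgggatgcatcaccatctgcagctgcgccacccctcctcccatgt
Tsx: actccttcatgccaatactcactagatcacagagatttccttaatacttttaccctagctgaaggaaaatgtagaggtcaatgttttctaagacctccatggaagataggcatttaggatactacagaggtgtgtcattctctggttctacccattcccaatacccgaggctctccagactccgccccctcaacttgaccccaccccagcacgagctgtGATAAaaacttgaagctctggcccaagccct
The core GATAA, searched on both strands, lay 56 bases before the start of *Cst9* and 31 bases before that of *Tsx*, and 22.6% of 32851 mouse promoters of this length hold it. The *Cst12* window held none. In the 5 windows no match was found for the SOX motif AACAAT (9.42% of promoters), the DMRT1 motif ACATTGT (2.56%), the longer GATA motif AGATAA, which contains the core (9.99%), the NR5A1 motif CAAGGTCA (1.33%) or the forkhead motif TAAACA (12.0%). The *Cst9* and *Tsx* windows had GC contents of 45.6% and 47.2%, and that of *Cst12* 52.8%, where the median of all promoters was 52.4%.

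All 10 markers had more CPM in each *Trim28* cKO library than in any control library, a separation that 26.7% of the 18959 tested genes showed. Since this contrast chose the genes, nothing is read from that count. Their log2 fold changes, cKO over control, ran from 1.42 for *Abtb2* to 9.59 for *Sncb*, with a median of 2.77, beside a median of 0.001 over all tested genes. All 10 passed the filter on low counts. The markers differed widely among themselves in how far the genotypes stood apart: the lowest cKO library exceeded the highest control library 1.88 times for *Abtb2*, 3.33 times for *Clu*, 21.5 times for *Cst9* and 248 times for *Sncb*.

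**Figure D1:**
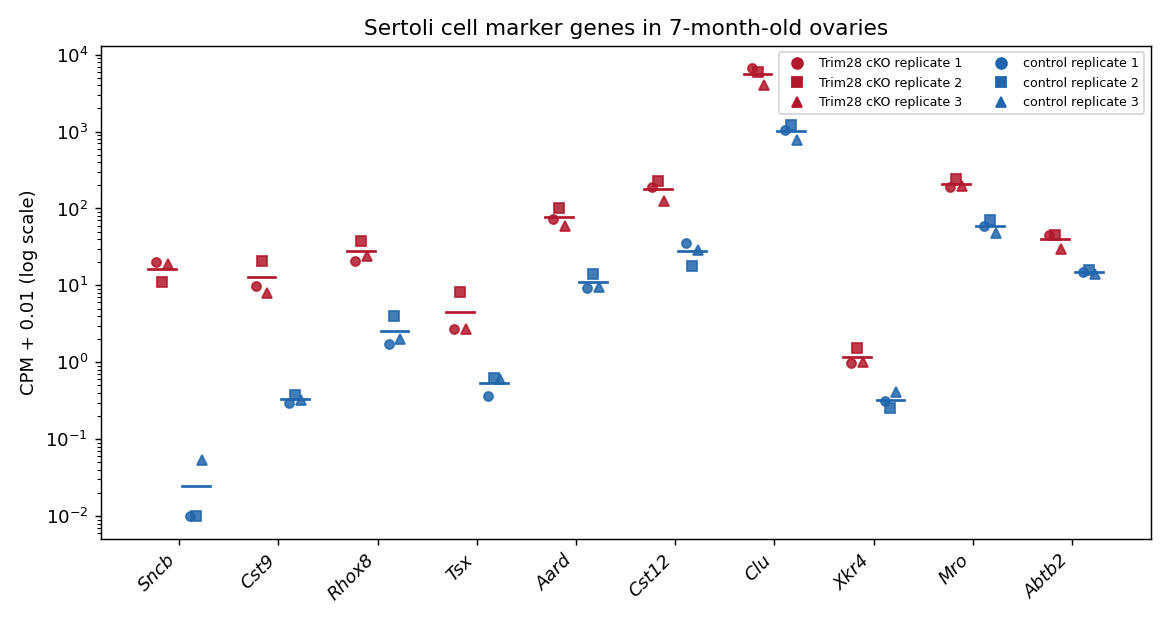
CPM, with 0.01 added for the log axis, of the 10 Sertoli markers in each of the 3 *Trim28* cKO libraries (left of each pair) and 3 control libraries (right), with horizontal lines at group means. For every gene the cKO points lie above the control points, and the gap is narrowest for *Abtb2* (30.1 CPM in the lowest cKO library, 16.0 CPM in the highest control library) and widest for *Sncb*, which had 0 counts in 2 control libraries.

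Among the secreted products, *Clu* encodes clusterin, an extracellular chaperone that is one of the most abundant secretions of Sertoli cells and is also made by many other cell types. *Clu* (chr14:65968483-65981547, mm10) had 6632, 5862 and 4068 CPM in *Trim28* cKO ovaries, against 1047, 1221 and 779 CPM in control ovaries. It was already abundant in each control library, where it ranked 61st, 41st and 93rd of all genes by count, and it ranked 2nd, 1st and 6th in the cKO libraries. Clusterin reads made up 0.638, 0.585 and 0.401% of all counts in the cKO libraries and 0.106, 0.127 and 0.0781% in the control libraries. The log2 fold change was 2.44 (SE 0.26). Because *Clu* held between 88.2 and 92.3% of the counts of the 10 markers in every library, their sum follows this gene: 7183, 6557 and 4535 CPM in cKO ovaries and 1169, 1345 and 883 CPM in control ovaries. Without *Clu*, the other 9 markers summed to 551, 695 and 466 CPM in cKO ovaries and 122, 125 and 104 CPM in control ovaries.

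*Cst9* and *Cst12* encode cystatins, members of a family of inhibitors of cysteine proteases. *Cst9*, also called testatin, is known from the fetal testis, where it is switched on in the supporting cells soon after sex determination. *Cst9* (chr2:148835147-148838738) had 9.91, 20.5 and 7.91 CPM in *Trim28* cKO ovaries, against 0.282, 0.367 and 0.310 CPM in control ovaries. The control values rest on 11, 9 and 14 reads, so the gene was near but not at 0 in every control library. Its log2 fold change was 5.32 (SE 0.46), and 4.81 without cKO replicate 2, which had the highest level. *Cst12* (chr2:148789361-148793546) had 190, 226 and 125 CPM in cKO ovaries, against 36.1, 17.9 and 28.8 CPM in control ovaries. It was thus counted in control ovaries as well, with 439 reads in the lowest library, and its log2 fold change was 2.71 (SE 0.31).

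*Tsx* and *Rhox8* both lie on the X chromosome. *Tsx* is known from the testis and lies in the region of the X-inactivation centre, close to *Xist*. It was also counted in every control ovary library, with 14, 15 and 27 reads. *Tsx* (chrX:103414467-103424580) had 2.69, 8.22 and 2.70 CPM in *Trim28* cKO ovaries, against 0.359, 0.612 and 0.597 CPM in control ovaries. Replicate 2 stood above the other cKO libraries, which were nearly level, and the log2 fold change was 3.12 (SE 0.55) with it and 2.37 without it. It was also the marker with the widest spread in cKO ovaries, with a coefficient of variation of 70.3%, and its highest cKO library was 3.05 times its lowest. *Rhox8* belongs to the reproductive homeobox cluster, and in the mouse it is known from Sertoli cells and from granulosa cells. *Rhox8* (chrX:37874778-37878944) had 20.9, 38.1 and 24.2 CPM in cKO ovaries, against 1.74, 3.96 and 1.97 CPM in control ovaries. It was detected in all 6 libraries, with 68, 97 and 89 reads in the controls, and the log2 fold change was 3.46 (SE 0.39).

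*Sncb* encodes β-synuclein, a presynaptic protein of neurons. *Sncb* (chr13:54758860-54766595) had 19.8, 10.96 and 18.7 CPM in *Trim28* cKO ovaries, against 0, 0 and 0.044 CPM in control ovaries. The reads behind these values were 619, 480 and 894 in cKO libraries and 0, 0 and 2 in control libraries. The ratio of the summed counts, scaled for depth, was 882, with a 95% exact interval of 244 to 7288 that covers counting error only. The fitted log2 fold change of 9.59 (SE 0.61) depends on those 2 reads and was 12.3 without control replicate 3, when no control read was left. *Xkr4* encodes a scramblase of the plasma membrane that exposes phosphatidylserine after caspase cleavage. *Xkr4* (chr1:3205901-3671498) had the lowest signal per kilobase of the 10 in cKO ovaries and the lowest but for *Sncb* in control ovaries. It had 0.962, 1.53 and 1.004 CPM in cKO ovaries and 0.308, 0.245 and 0.398 CPM in control ovaries. These are 30, 67 and 48 reads in cKO libraries and 12, 6 and 18 reads in control libraries, and the log2 fold change was 1.85 (SE 0.36).

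*Aard* encodes a protein rich in alanine and arginine that is enriched in the developing testis. *Aard* (chr15:52040107-52045722) had 72.5, 101 and 59.3 CPM in *Trim28* cKO ovaries, against 9.18, 14.2 and 9.38 CPM in control ovaries. The log2 fold change was 2.84 (SE 0.26), close to the median of the 10 markers. *Mro*, or Maestro, was named for its male-specific transcription in the developing gonad and lies on chromosome 18. *Mro* had 189, 244 and 197 CPM in cKO ovaries, against 59.1, 71.2 and 48.5 CPM in control ovaries, with a log2 fold change of 1.82 (SE 0.17). Among the 10 markers it varied least between cKO libraries (coefficient of variation 13.97%). *Abtb2* encodes a protein with ankyrin repeats and a BTB domain. *Abtb2* (chr2:103566310-103718423) had 44.9, 45.3 and 30.1 CPM in cKO ovaries, against 14.8, 16.0 and 14.2 CPM in control ovaries, and its log2 fold change of 1.42 (SE 0.18) was the smallest of the 10.

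**Figure D2:**
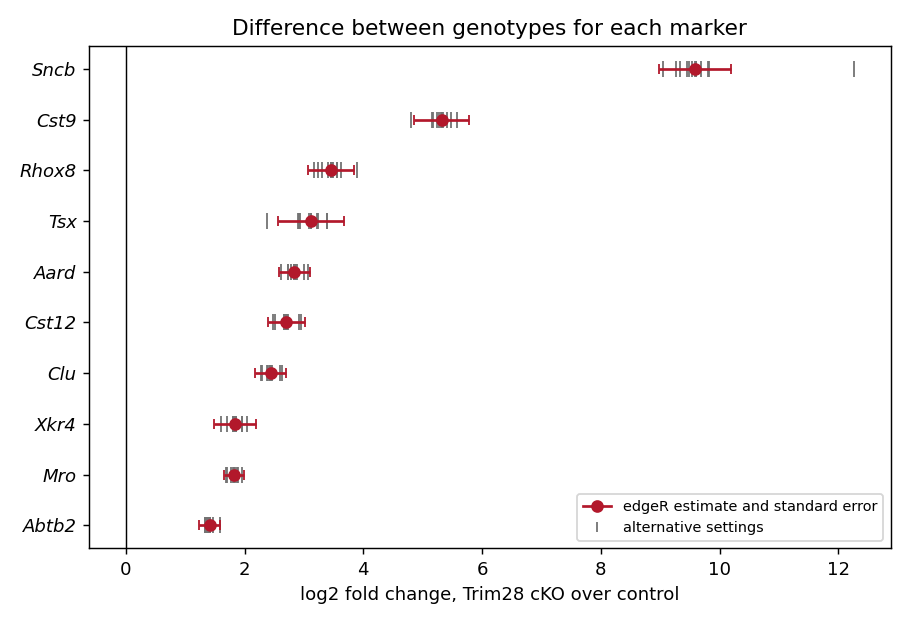
Log2 fold change, *Trim28* cKO over control, of each marker from edgeR (red points, bars are standard errors of the fit over 3 and 3 libraries) with the values under the alternative settings (grey ticks). Every tick lies above 0, and the widest range is that of *Sncb*, 9.04 to 12.3, whose outlying tick leaves out the only control library with reads.

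To compare levels between genes, the deposited signal per kilobase of transcript was used. In *Trim28* cKO ovaries the mean order was *Clu*, *Cst12*, *Mro*, *Aard*, *Rhox8*, *Sncb*, *Cst9*, *Abtb2*, *Tsx* and *Xkr4*, with mean signals per kilobase of 256103 for *Clu*, 11403 for *Cst12* and 12.1 for *Xkr4*. The ranges over the 3 cKO libraries overlapped between *Rhox8* and *Sncb*, between *Sncb* and *Cst9* and between *Cst9* and *Abtb2*, so these pairs of neighbours cannot be ordered. Ranges of genes that are not neighbours overlapped too, for *Rhox8* and *Cst9* and for *Sncb* and *Abtb2*. In control ovaries the order was *Clu*, *Cst12*, *Mro*, *Aard*, *Abtb2*, *Rhox8*, *Tsx*, *Cst9*, *Xkr4* and *Sncb*. There the ranges of *Cst12* and *Mro* and those of *Tsx* and *Cst9* overlapped. By mean signal the first 4 genes held the same places in both genotypes, but *Cst12* was above *Mro* in only 2 control libraries. *Sncb* took the 6th place by mean in cKO ovaries, where it overlapped *Rhox8*, *Cst9* and *Abtb2*, and the last in control ovaries. *Abtb2* took the 8th place by mean in cKO ovaries, where it overlapped *Cst9* and *Sncb*, and the 5th in control ovaries.

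Within the cKO group, replicate 2 had the highest level of 8 of the 10 markers, and 34.3% of all tested genes were highest there. The exceptions were *Sncb* and *Clu*, both highest in replicate 1, and *Sncb* was lowest in replicate 2. Replicate 3 was lowest for 5 markers. The median deviation of the 10 genes from their cKO mean was -0.10, 0.33 and -0.37 on the log2 scale in replicates 1, 2 and 3. Of 10 Sertoli transcription factor genes, 5 were highest in replicate 2, as were 16 of 32 other Sertoli genes. The same held for 7 of 8 surface epithelium genes, 7 of 9 tested spermatogenic genes and none of 12 macrophage genes. In control libraries, 7 of the 10 markers were highest in replicate 2, the shallowest library, in which all 16 oocyte genes were also highest. These counts describe 3 libraries of each genotype and were not tested. The share of all tested genes was not computed for the lowest cKO library or for the control libraries. Nothing is therefore read from those counts.

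**Figure D3:**
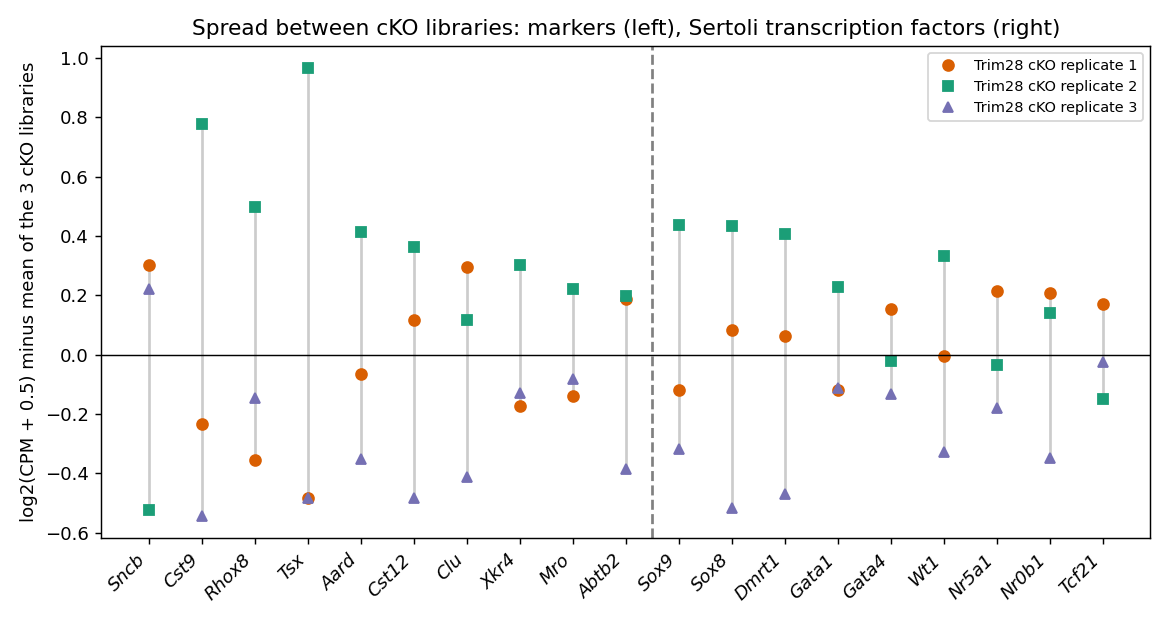
Deviation of log2(CPM + 0.5) in each *Trim28* cKO library from the mean of the 3 cKO libraries, for the 10 markers (left) and 9 Sertoli transcription factor genes (right). Replicate 2 is the top symbol for 8 of the 10 markers and 5 of the transcription factor genes shown.

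*Cst9* and *Cst12* lie in a cluster of cystatin genes on chromosome 2, and the genes of the cluster differed from each other. From the proximal end the order is *Cstl1*, *Cst11*, *8030411F24Rik*, *Cst12*, *Cst8*, *Cst13*, *Cst9*, *9230104L09Rik* and *Cst3*. *Cst8*, between the 2 markers, had 56.5, 25.2 and 26.5 CPM in *Trim28* cKO ovaries, against 52.7, 18.1 and 96.6 CPM in control ovaries, and the groups overlapped (adjusted p = 0.428, edgeR). *Cst13*, beside *Cst9*, was under 0.6 CPM in every library and did not pass the test either (adjusted p = 0.119, edgeR). *8030411F24Rik*, annotated as cystatin-14, had 26.4, 35.1 and 15.5 CPM in cKO ovaries, against 0.154, 0.163 and 0.155 CPM in control ovaries. Its log2 fold change of 7.33 (SE 0.41, adjusted p = 0.000133, edgeR) exceeded that of *Cst9*. *9230104L09Rik* had 50.9, 23.3 and 15.6 CPM in cKO ovaries, against 0.359, 0.449 and 0.177 CPM in control ovaries, a log2 fold change of 6.57 (SE 0.60, adjusted p = 0.00047, edgeR). These 2 genes were chosen after their values were seen. *Cst3*, which encodes the broadly expressed cystatin C, had 1218, 710 and 735 CPM in cKO ovaries, against 206, 240 and 204 CPM in control ovaries (log2 fold change 2.03, adjusted p = 0.00086, edgeR).

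**Figure D4:**
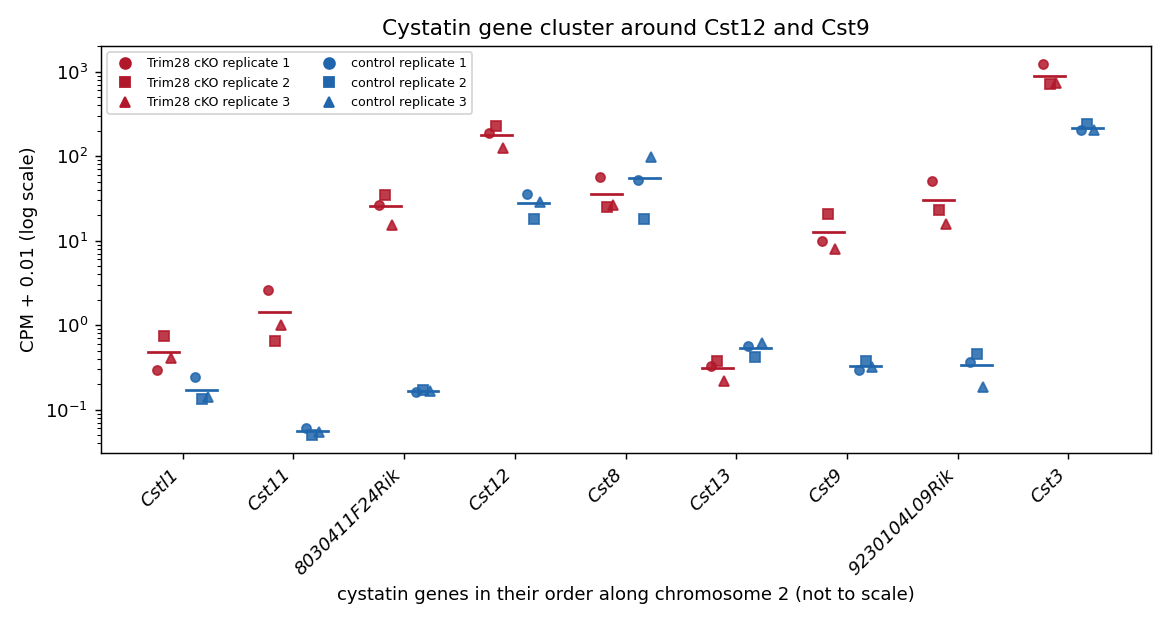
CPM, with 0.01 added for the log axis, of cystatin genes in their order along chromosome 2 (not to scale) in 3 *Trim28* cKO libraries (left of each pair) and 3 control libraries (right), with lines at group means. *Cst12* and *Cst9* and the 2 unnamed genes beside them are higher in every cKO library, while the points of *Cst8* overlap between groups.

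Relatives of the markers were then examined in a list of 44 genes of the same families, of which 24 were tested. *Trim28* cKO ovaries had higher levels of 12, where 20.2% of all tested genes were higher, and lower levels of 3, where 16.8% were lower. The other 9 did not pass, and the median log2 fold change of the 24 was 0.76. Without control replicate 1 or control replicate 3, 7 were higher, and without control replicate 1 the number of all tested genes that were lower was 2039 in place of 3189. The lower count was 1 without cKO replicate 3 or any single control. Of 8 cystatins tested, 5 were higher, among them *Cst11*, an epididymal cystatin, with 2.63, 0.639 and 0.983 CPM in cKO ovaries and 0.051, 0.041 and 0.044 CPM in control ovaries. Of the 12 other *Rhox* genes in the table, 2 had enough counts to be tested. *Rhox10* was higher, at 0.659 ± 0.329 CPM (SD, n = 3) in cKO ovaries and 0.054 ± 0.0199 CPM in control ovaries (log2 fold change 3.50, adjusted p = 0.0050, edgeR), and *Rhox5*, a gene of Sertoli cells in the mouse, did not pass (log2 fold change 0.71, adjusted p = 0.28, edgeR). Of the synucleins, *Sncg* (γ-synuclein) was higher with 2.37, 8.11 and 17.4 CPM in cKO ovaries and 1.28, 1.67 and 1.42 CPM in control ovaries. Among 4 tested *Xkr* genes, *Xkrx* was higher (3.05 CPM in cKO ovaries and 1.35 CPM in control ovaries), as was *Xkr8* (log2 fold change 0.79), and *Xkr5* was lower (log2 fold change -1.20). Of 7 tested *Mroh* genes, relatives of *Mro*, 3 were higher and 2 lower, *Mroh7* most (log2 fold change -2.14, 2.95 ± 1.22 CPM in cKO ovaries and 13.01 ± 0.517 CPM in control ovaries). *Abtb1* had a log2 fold change of 0.07 and did not pass.

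The markers were set beside 33 other Sertoli cell genes, of which 32 were tested. *Trim28* cKO ovaries had more of 19 and less of 3, and the other 10 missed the threshold, with a median log2 fold change of 1.27. Over all tested genes, 20.2% were higher and 16.8% lower. The study had picked 9 of the 32 from these libraries, and of the other 23 genes 12 were higher and 1 was lower. The whole list was chosen with earlier results of these data known, so neither part is independent evidence. The highest were *Defb36*, a β-defensin gene, at 7.37, 19.3 and 9.87 CPM in cKO ovaries and 0.180, 0.204 and 0.133 CPM in control ovaries (log2 fold change 6.15, SE 0.49, adjusted p = 0.000316, edgeR), and *Ptgds*, which encodes prostaglandin D synthase, at 661, 167 and 192 CPM in cKO ovaries and 4.31, 8.98 and 14.4 CPM in control ovaries (log2 fold change 5.20, SE 0.73, adjusted p = 0.002, edgeR). *Ptgds* had its highest level in replicate 1, as *Clu* and *Sncb* did. The lowest were *Amh*, anti-Müllerian hormone, at 25.4, 20.1 and 18.0 CPM in cKO ovaries and 90.6, 151 and 108 CPM in control ovaries (log2 fold change -2.46, SE 0.23, adjusted p = 0.000465, edgeR), and *Inhbb*, an inhibin subunit, at 113, 201 and 114 CPM in cKO ovaries and 323, 248 and 374 CPM in control ovaries (log2 fold change -1.14, SE 0.26, adjusted p = 0.0139, edgeR). Both are also made by granulosa cells and are counted again in the granulosa list below. The third was the tight junction gene *Tjp1* (log2 fold change -0.60, adjusted p = 0.0245, edgeR), named after its value was seen.

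**Figure D5:**
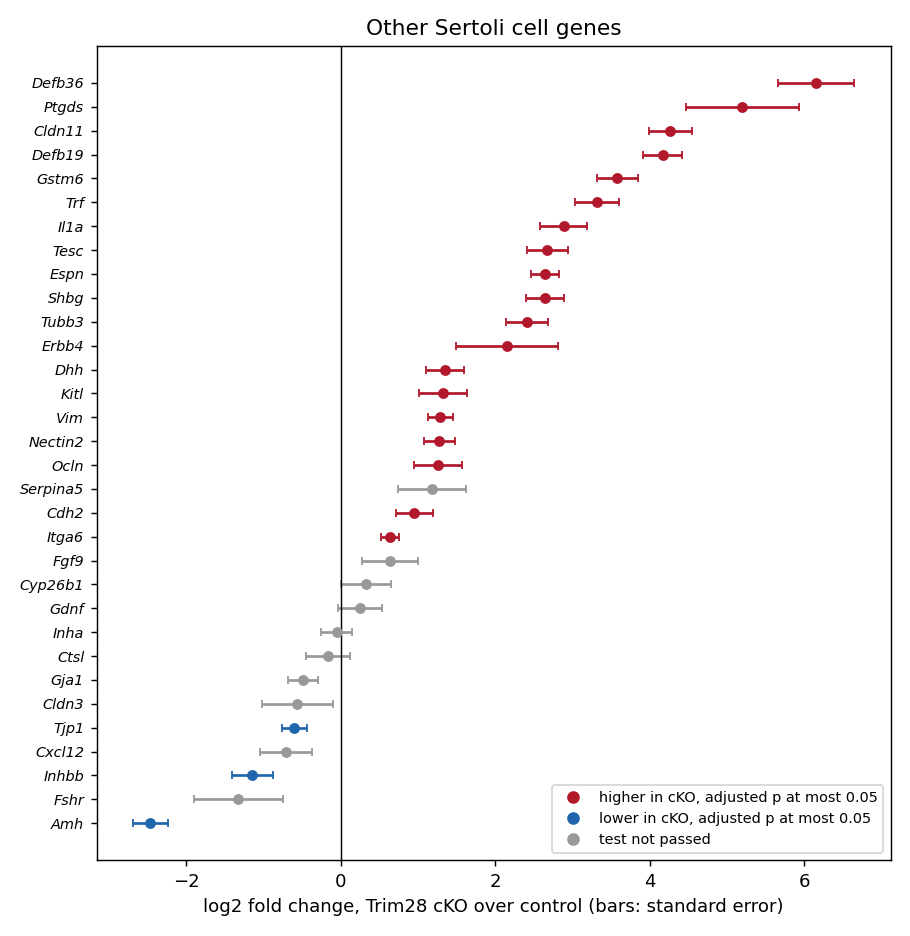
Log2 fold change, *Trim28* cKO over control, of 32 other Sertoli cell genes, with standard errors of the edgeR fit over 3 and 3 libraries. The 19 genes higher in cKO ovaries (red) reach 6.15 for *Defb36*, and the 3 lower ones (blue) reach -2.46 for *Amh*.

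Of 10 transcription factor genes of Sertoli cells, 6 were higher and 1 was lower in *Trim28* cKO ovaries, where 20.2% of all tested genes were higher and 16.8% lower. *Dmrt1*, a testis-determining factor, had 13.7, 17.6 and 9.33 CPM in cKO ovaries and 0.026, 0 and 0.022 CPM in control ovaries, which are 2 control reads in all, the same number as for *Sncb*. Its fitted log2 fold change of 9.30 depends on those reads. *Sox8* had 31.3, 40.0 and 20.4 CPM in cKO ovaries and 0.718, 1.43 and 0.841 CPM in control ovaries (log2 fold change 4.97, adjusted p = 0.000247, edgeR). The study had picked 4 of the 10 from these libraries.

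The genes whose pattern over the 6 libraries was most like the median pattern of the 10 markers were *Shc4*, *Nat8f2*, *Shbg*, *Espn* and *Mum1l1*, among 12380 genes with at least 5 CPM in cKO ovaries. Their root mean square difference from it was 0.130, 0.139, 0.149, 0.152 and 0.163 on the log2(CPM + 0.5) scale. *Shc4* had 12.8, 18.8 and 10.5 CPM in cKO ovaries and 2.18, 2.12 and 1.97 CPM in control ovaries. *Shbg* and *Espn*, which encode sex hormone-binding globulin and the actin-bundling protein espin, are also on the list of other Sertoli genes. Of the markers themselves, *Aard* (0.182) and *Clu* (0.212) came closest to the median pattern and *Sncb* (1.36) was farthest from it.

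Several lists of markers of other cells also differed between genotypes, and others did so less or in both directions. The counts below stand beside 20.2% of all tested genes higher and 16.8% lower. All 12 macrophage genes were higher in *Trim28* cKO ovaries, with summed levels of 3485 to 6456 CPM in cKO ovaries and 531 to 626 CPM in control ovaries and none at 0. Of 8 surface epithelium genes, 5 were higher and 1 lower (312 to 611 CPM in cKO ovaries, 102 to 177 CPM in control ovaries). Of 15 granulosa genes, 9 were lower and none was higher (3202 to 3862 CPM in cKO ovaries, 4912 to 6118 CPM in control ovaries), and all 8 luteal genes were lower (5264 to 6747 CPM in cKO ovaries, 20896 to 35381 CPM in control ovaries). The study had picked 8 of the 15 granulosa genes from these libraries, and of the other 7, 1 was lower. It had picked 3 of the 8 luteal genes, and the other 5 were lower. *Amh*, *Fshr*, *Inha*, *Inhbb* and *Gja1* of the granulosa list are also on the list of other Sertoli genes. Of 16 oocyte genes, 13 were lower (74.8 to 96.7 CPM in cKO ovaries, 412 to 838 CPM in control ovaries). Of 9 theca and Leydig genes, some of which are also luteal genes, 4 were higher and 4 lower (5289 to 6901 CPM in cKO ovaries, 17355 to 27511 CPM in control ovaries). Of 8 smooth muscle genes, 1 was higher, 3 were lower and 4 did not pass (542 to 1068 CPM in cKO ovaries, 1335 to 1756 CPM in control ovaries). Of 6 endothelial genes, 1 was higher and 5 did not pass (461 to 593 CPM in cKO ovaries, 429 to 483 CPM in control ovaries). The part of these cells in the levels of the 10 markers was not tested. Male germ cells also use *Tsx*. Of 12 spermatogenic genes 9 were tested and only *Zbtb16* was higher. It was at 31.7 ± 2.43 CPM in cKO ovaries and 6.95 ± 4.55 CPM in control ovaries. The protamine gene *Prm2* had 0, 5.48 and 0.858 CPM in cKO ovaries and 5.57, 1.88 and 0.089 CPM in control ovaries. *Prm1*, *Tnp1* and *Tnp2* were likewise highest in cKO replicate 2 and control replicate 1, and none of these genes passed. *Tsx* was also highest in cKO replicate 2, and the part of germ cells in its level was not tested.

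Sequence shared with other genes was rare among the markers. For 8 markers, no stretch of 50 bases of their transcripts occurred in another annotated gene, whereas 4.90% of *Rhox8* stretches and 0.0221% of *Mro* stretches did. *Tsx* overlaps *Gm26992* on the same strand over 2571 bases. *Xkr4* overlaps 9 annotated genes, the most counted of which, *Gm19938*, had 19 reads in cKO libraries and 5 in control libraries. The other markers overlap no gene in the annotation used.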

How the data were processed

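RNA of whole ovaries was sequenced from polyadenylated, strand-marked libraries of 600 ng total RNA with single-end reads of 50 bases. After mapping to mm10 by STAR 2.5.3a, the authors counted uniquely aligned reads per Ensembl 92 gene in htseq-count 0.6.1p1 (union mode) and deposited these raw counts. Processing notes of the submitters list bcl2fastq 2.17.1.14 and DESeq2 1.16.1 too. In the sources used here, the strand setting of htseq-count is not given. A signal per kb, which the authors made from the counts with size factors and transcript lengths, was used only to order genes by level. Their own fold changes and p-values, control over knockout, were not used.

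Of 34461 genes, 18959 passed filterByExpr (minimum count 10, minimum total 15). The quasi-likelihood test of edgeR 4.0.16 (TMM, robust glmQLFit) was run on them under R 4.3.3. P-values were two-sided and adjusted by Benjamini-Hochberg over all tested genes, and a gene of a list was higher or lower at an adjusted p of at most 0.05. Values after ± are SD (n = 3 libraries). Groups were taken from the labels. Libraries of a group were distinct, since each pair differed by more than sampling noise (chi-square divided by its degrees of freedom, 31.8 to 96.6). The fit was tested on simulated data. Coordinates were those of the deposited table, and overlaps came from GENCODE M21. Python 3.11.15, pandas 2.3.3, scipy 1.17.1 and matplotlib 3.10.9 were used for tables and figures.

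The markers, lists and settings were chosen with earlier results of these data known. The named genes were the 10 markers, the 2 most raised and 2 most lowered genes of each list among those passing the test (fewer where fewer passed), and the 5 genes nearest in pattern. Of the cluster genes beyond this rule, *Cst8* and *Cst13* were chosen by position, and *8030411F24Rik* and *9230104L09Rik* after their values were seen. The alternatives were DESeq2 size factors, library size alone, no filter on low counts, a filter of 1 CPM in 3 libraries, limma-voom 3.58.1, DESeq2 1.42.0 (Wald test), the replicate number as a block and each library left out. Some genes of the lists are not reported here by name.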

Additional observations from a re-analysis of the deposited data

How the results depend on the processing

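The median log2 fold change of the 10 markers was 2.77 and lay between 2.46 and 2.96 when 1 library was left out. No marker changed sign under any of the 13 alternatives, and *Xkr4* was removed by the filter of 1 CPM in 3 libraries. Without cKO replicate 2 the log2 fold change was 4.81 for *Cst9*, 2.37 for *Tsx* and 1.61 for *Xkr4*. Leaving out control replicate 1 gave 9.04 for *Sncb*, and leaving out control replicate 3 gave 12.3. Without 1 library, 2801 to 3649 tested genes were higher and 2039 to 2753 lower (3832 and 3189 with all libraries), with the lowest counts without control replicate 1, 17 to 18 other Sertoli genes were higher and 2 to 4 lower, and 7 to 10 genes of the marker families were higher and 1 to 2 lower. With the filter of 1 CPM in 3 libraries, 7 family genes were higher, and with the Wald test of DESeq2, 5 other Sertoli genes were lower. Fewer samples or fewer tested genes enter these fits, except for DESeq2, where the cause was not tested. Counts for some other cells moved as well. Without the filter on low counts, 2 surface epithelium genes were higher in place of 5. In that fit 0 smooth muscle genes were higher in place of 1, and 1 was lower in place of 3. With the replicate number as a block, 3 surface epithelium genes were higher. The cause of these moves was not tested.

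Libraries with the same replicate number did not deviate together (correlations -0.07, 0.06 and -0.17). The labels state no pairing, and with 3 libraries per group these correlations cannot settle whether there was one. With the replicate number as a block, 3162 tested genes were higher and 2339 lower, 18 other Sertoli genes were higher and 2 lower, 9 family genes were higher and 1 lower (the cause was not tested), and the median of the markers was 2.77. Depth limits *Sncb*, *Cst9* and *Xkr4* most, with 2, 34 and 36 control reads in all.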

Other observations

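The genes next to the markers on the chromosome, the nearest tested gene on each side, were looked at after the data had been seen. Of 19 such genes, *Trim28* cKO ovaries had more of 5 and less of 4 by the edgeR test, 10 missed its threshold, and their median log2 fold change was 0.32. Over all tested genes 20.2% were higher and 16.8% lower, so these counts are not read as a result about the neighbours. The lower count was 2 without any single library other than cKO replicate 2. Beside *Clu*, the scavenger receptor gene *Scara3* was higher, at 66.0 CPM in cKO ovaries and 20.5 CPM in control ovaries (log2 fold change 1.68, adjusted p = 0.00161, edgeR), whereas *Gulo* on the other side had 7.16 CPM in cKO ovaries and 7.55 CPM in control ovaries and did not pass. Beside *Sncb*, the oocyte translation factor gene *Eif4e1b* was lower, at 3.09 CPM in cKO ovaries and 16.98 CPM in control ovaries (log2 fold change -2.46, adjusted p = 0.00132, edgeR), opposite in direction to *Sncb* itself. Beside *Tsx*, *Chic1* was lower (log2 fold change -0.71, adjusted p = 0.0149, edgeR), and beside *Mro*, *Me2*, which encodes a mitochondrial malic enzyme, was higher (log2 fold change 0.65, adjusted p = 0.0027, edgeR).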
